A study of Mus musculus with 12 samples.

Results

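Opioid, galanin and other modulatory peptide signaling in the hypothalamus was followed through 10 genes, taken by symbol from the 17161 genes listed on a chow diet or a high-fat diet (HFD). The 10 are the peptide precursor genes *Pdyn*, *Penk*, *Gal*, *Nts*, *Tac1*, *Cck*, *Adcyap1* and *Vip* and the opioid receptor genes *Oprm1* and *Oprk1*. All 10 were listed on both diets, and all 10 passed a filter of at least 50 mean normalized counts over the mice of a diet. On chow, *Gpr75-/-* mice had a lower group mean of *Penk* than WT mice (0.708-fold) and higher group means of *Vip* (1.23-fold) and *Oprm1* (1.23-fold). On the HFD, *Vip* was again higher (1.27-fold), *Tac1* and *Gal* also had higher group means (log2 differences of 0.26 and 0.22), *Cck* had a lower one (0.838-fold), and *Penk* was at 1.08-fold.

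Neuropeptides are cut from larger precursor proteins, packed into dense-core vesicles and released beside classical transmitters, and most act through G protein–coupled receptors. Enkephalins from *Penk* act mainly on the δ and μ opioid receptors and dynorphins from *Pdyn* on the κ receptor, all of which lower cAMP, whereas PACAP from *Adcyap1* and VIP raise it. In the hypothalamus these peptides bear on feeding, reward, stress and daily rhythm. Galanin and opioids are known to promote eating, and cholecystokinin and neurotensin to restrain it.

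RNA-Seq was performed on hypothalamus of male mice at 8 weeks of age. There were 4 groups with 3 mice each, since both WT and *Gpr75-/-* mice were either kept on chow or fed the HFD for 2 weeks. The knockout is a germline null allele made by CRISPR/Cas9 in C57BL/6J mice, so GPR75, an orphan receptor tied to body weight, is missing from every tissue and throughout development. The comparison of genotypes on each diet asks how hypothalamic transcription depends on GPR75. For each gene the authors deposited a mean normalized count over the 6 mice of a diet and 1 mean per group. Values of single mice were not analysed here, so no difference has an SD, an SE or a test, and whether any of them exceeds the spread between mice was not tested.

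Group means are given as log2 CPM (CPM is a gene's count scaled to a common library total), calculated back from deposited values that were rounded to 2 decimals. The bounds after a difference or fold are the range that this rounding allows and say nothing about the mice. Each difference is *Gpr75-/-* minus WT and was taken before rounding. Differences of at least 1.2-fold, a log2 of 0.263, are called past the limit. The sum of mean normalized counts was 18280462 for chow and 19420111 for the HFD, so that 1 CPM stands for 18.3 and 19.4 counts. The diets were normalized separately, and their levels are set side by side without a comparison. Gene coordinates are those deposited, and the submitters' processing notes name the build GRCm39.

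*Gpr75* itself (ENSMUSG00000043999) had group means of 4.06 in WT and 4.62 in *Gpr75-/-* mice on chow, and of 4.31 and 4.21 on the HFD. Its coding sequence ends early in the knockout while transcription can go on, so this mRNA level is no check on the labels. The labelled tissue was checked against marker genes. All 8 hypothalamic neuron markers were listed on both diets, with *Pmch*, the gene of melanin-concentrating hormone, at 7.94 in WT mice on chow. Striatal, thalamic and cortical markers were present as well, and their values are given with the members they moved with. No pituitary marker passed the filter.

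Levels among the members were compared per kilobase of exon in WT mice. On chow, *Penk* had 91.6 CPM per kilobase, followed by *Gal* with 47.7, *Nts* with 39.8, *Cck* with 31.6, *Tac1* with 26.0, *Adcyap1* with 23.4 and *Pdyn* with 14.7. Far below came the κ receptor gene *Oprk1* with 3.17, *Vip* with 2.75 and the μ receptor gene *Oprm1* with 0.672 CPM per kilobase. On the HFD the order was the same but for *Adcyap1* (26.1) and *Tac1* (25.1), which changed places. Precursor genes thus filled the top of the order and receptor genes, with *Vip*, the bottom. Whether neighbors in the order differ beyond the spread between mice was not tested. The order also depends on the transcript length used, with *Oprm1* last under each length tried. With the shortest transcript, *Adcyap1* came first on both diets, and *Penk* took place 2 on chow and 3 on the HFD. As a ratio, the step down to the receptor genes was then smaller on chow, from 39.8 (*Nts*) to 21.1 CPM per kilobase (*Oprk1*). With all exons it ran from 14.7 (*Pdyn*) to 3.17 (*Oprk1*).

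**Figure D1:**
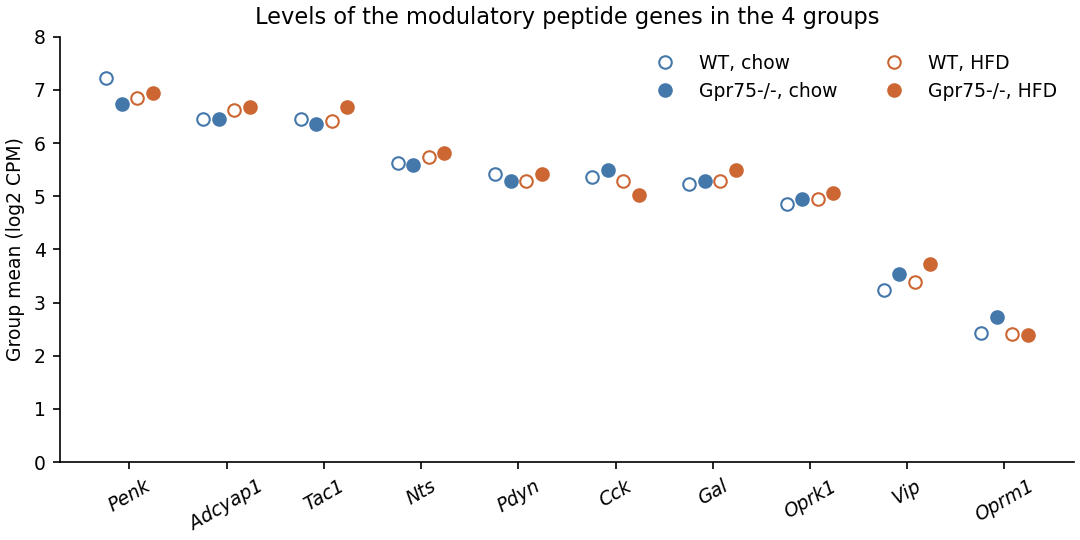
Group means of the 10 genes in log2 CPM on the y axis, with WT as open and *Gpr75-/-* as filled circles, chow in blue and HFD in orange. *Penk* ranged from 6.73 to 7.22 over the 4 groups and *Oprm1* from 2.39 to 2.73, and levels of different genes are not corrected for length here.

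On chow, the opioid precursor *Penk* (ENSMUSG00000045573, chromosome 4, 4133531 to 4138819), which encodes the enkephalins, had the largest difference among the members. Its group mean was 7.22 in WT and 6.73 in *Gpr75-/-* mice, or 149.6 and 106 CPM. The WT group was thus the high one on chow. The difference was -0.50 (bounds -0.55 to -0.44), and 0.997% of the 14240 genes kept on chow had one at least as large. On the HFD, *Penk* was at 6.84 in WT and 6.94 in *Gpr75-/-* mice, a difference of 0.11 (0.05 to 0.16) that 29.2% of the 14326 genes kept on that diet equaled or passed. In bulk tissue such as this, fewer cells of a type and less RNA per cell cannot be told apart.

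*Pdyn* (ENSMUSG00000027400, chromosome 2, 129528485 to 129541764) encodes the dynorphins. Its group means were 5.41 in WT and 5.28 in *Gpr75-/-* mice on chow, and 5.28 and 5.41 on the HFD. WT mice had the higher mean on chow and *Gpr75-/-* mice on the HFD. The differences were -0.13 (-0.18 to -0.09) and 0.13 (0.09 to 0.18), each inside the 1.2-fold limit.

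*Oprm1* (ENSMUSG00000000766, chromosome 10, 6708506 to 6988198) encodes the μ opioid receptor, the main target of morphine. Its group mean on chow was 2.43 in WT and 2.73 in *Gpr75-/-* mice, whereas the HFD groups were at 2.41 and 2.39. The *Gpr75-/-* group was the higher one on chow, and the genotypes were level on the HFD. The difference on chow was 0.30 (0.27 to 0.32), a 1.23-fold higher level (1.21 to 1.25), and on the HFD it was -0.02 (-0.05 to 0). This was the least abundant member, with a mean of 111 normalized counts on chow and 103 on the HFD. With 1 CPM added before the log, the chow difference was 0.26, just inside 1.2-fold.

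*Oprk1* (ENSMUSG00000025905, chromosome 1, 5658689 to 5676354), the κ receptor gene, lay between 4.86 and 5.06 in the 4 groups. Its differences were 0.08 on chow and 0.12 on the HFD, both with rounding bounds above 0. Among the opioid receptors that are not members, *Oprd1*, which encodes the δ receptor, was lower in *Gpr75-/-* mice on both diets. Its group means were 1.99 in WT and 1.81 in *Gpr75-/-* mice on chow and 1.97 and 1.69 on the HFD, with differences of -0.18 and -0.27. Over all 9 opioid genes on the list fixed for the pathway, the median difference was -0.13 on chow and 0.11 on the HFD, where the median of all genes was 0 on each diet.

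*Vip* (ENSMUSG00000019772, chromosome 10, 5589218 to 5597617) encodes vasoactive intestinal peptide, which neurons of the suprachiasmatic nucleus use to keep their clocks in step. Its group means were 3.23 in WT and 3.53 in *Gpr75-/-* mice on chow, and 3.38 and 3.72 on the HFD. On both diets the *Gpr75-/-* group was the higher one, and *Vip* was the only member past 1.2-fold on each. The difference was 0.30 (0.27 to 0.33) on chow, reached by 4.82% of genes, and 0.35 (0.32 to 0.38) on the HFD, reached by 2.21%. The mean was 193 normalized counts on chow and 229 on the HFD.

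*Adcyap1* (ENSMUSG00000024256, chromosome 17, 93506445 to 93513965) encodes PACAP, a relative of VIP that shares its receptors. Both genotypes had a group mean of 6.46 on chow, and on the HFD they were at 6.62 and 6.67. The difference of 0.00 on chow had bounds of -0.05 to 0.05, and that of 0.05 on the HFD had bounds of 0 to 0.11. At this rounding no genotype difference was detectable on either diet.

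*Cck* (ENSMUSG00000032532, chromosome 9, 121318890 to 121324760) encodes cholecystokinin, a satiety peptide of the gut that is also abundant in cortical and thalamic neurons. It had group means of 5.36 in WT and 5.50 in *Gpr75-/-* mice on chow, and of 5.28 and 5.02 on the HFD. The *Gpr75-/-* mice thus had the higher mean on chow and the lower one on the HFD. The differences were 0.13 (0.09 to 0.18) and -0.26 (-0.30 to -0.21), and 5.44% of genes had one as large as the latter on the HFD.

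*Tac1* (ENSMUSG00000061762, chromosome 6, 7554879 to 7565834) encodes substance P and neurokinin A. Its group means were 6.46 in WT and 6.36 in *Gpr75-/-* mice on chow, and 6.41 and 6.67 on the HFD. The *Gpr75-/-* mice had the lower mean on chow and the higher one on the HFD. The difference was -0.10 (-0.15 to -0.05) on chow and 0.26 (0.21 to 0.31) on the HFD, where 5.13% of genes had one as large.

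*Gal* (ENSMUSG00000024907, chromosome 19, 3459915 to 3464544), the galanin gene, had group means of 5.23 in WT and 5.28 in *Gpr75-/-* mice on chow, and of 5.28 and 5.50 on the HFD. As for *Tac1*, the *Gpr75-/-* group was the higher one on the HFD. The difference was 0.04 (0 to 0.09) on chow, which rounding alone could give, and 0.22 (0.18 to 0.27) on the HFD. *Nts* (ENSMUSG00000019890, chromosome 10, 102317617 to 102326347) encodes neurotensin, a peptide that dampens food intake and acts on dopamine neurons. It lay between 5.59 and 5.82 in the 4 groups, with a difference of -0.05 on chow and 0.09 on the HFD.

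**Figure D2:**
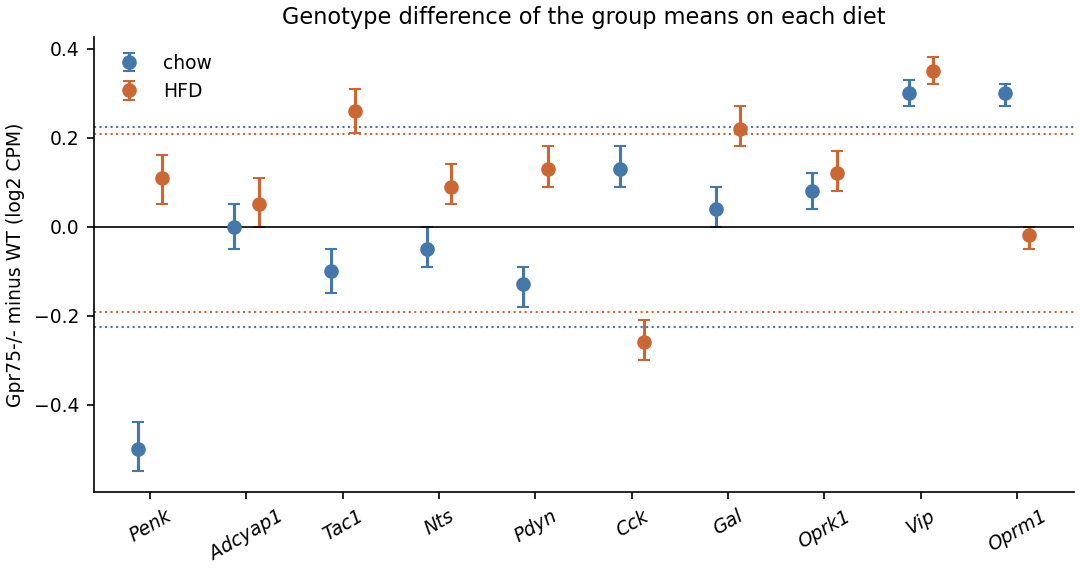
Difference of group means, *Gpr75-/-* minus WT, in log2 CPM for the 10 genes on chow (blue) and on the HFD (orange), where bars are the bounds that rounding allows and dotted lines are the 5th and 95th percentiles of all genes kept on that diet (-0.23 and 0.22 on chow, -0.19 and 0.21 on the HFD). *Penk* on chow, at -0.50, lies farthest from 0, and *Vip* lies above the upper dotted line on both diets.

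Counted together, 3 of the 10 members were past 1.2-fold on chow, 2 higher (*Vip* and *Oprm1*) and 1 lower (*Penk*) in *Gpr75-/-* mice. The share among all genes kept on chow was 6.97%, with 3.56% higher and 3.41% lower. On the HFD, 1 of 10 members (*Vip*) was past 1.2-fold, against 5.03% of all genes, with 2.74% higher and 2.3% lower. Just inside the limit on the HFD were *Tac1* at 0.26, *Cck* at -0.26 and *Gal* at 0.22, and the rounding bounds of all 3 reach across it. How often a gene passes this limit depends on its level. Among genes with a mean of 50 to 200 normalized counts, where *Oprm1* and, on chow, *Vip* belong, 18.8% were past it on chow and 14.5% on the HFD. Between 200 and 1000, where *Vip* belongs on the HFD, the shares were 3.63% and 2.35%. Among genes with a mean of at least 1000, the class of *Penk*, the shares were 1.57% and 0.981%.

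In direction the members were split on chow and mostly higher on the HFD. On chow, the *Gpr75-/-* mean was the higher one for 5 of 10, the lower one for 4 and equal for 1, and the median difference was 0.02. Rounding bounds stayed clear of 0 for 4 of the higher and 3 of the lower ones, against 28.5% of all genes higher and 27.5% lower. On the HFD, 8 were higher and 2 lower, with a median of 0.12, and bounds stayed clear of 0 for 7 and 1 of them, against 30% and 21.6% of all genes. Of the 8 precursor genes 7 were higher on the HFD, 6 of them beyond rounding. All genes together had a median difference of 0 on each diet, and 43.3% of them were higher on chow and 46.3% on the HFD. The summed level of the 10 members was 541 CPM in WT and 496 CPM in *Gpr75-/-* mice on chow, and 513 and 556 CPM on the HFD. *Penk* was the most abundant of them on both diets in CPM, without correction for length.

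Each diet had its own WT and *Gpr75-/-* mice, so the genotype differences on the HFD and on chow share no control. *Penk* had the widest gap between them among the members, with the HFD difference 0.61 (0.50 to 0.72) above the chow difference. Of the 14112 genes kept on both diets, 0.779% had a gap as large, and the 5th and 95th percentiles were -0.26 and 0.28. *Cck*, with -0.39 (-0.48 to -0.30), *Tac1*, with 0.36 (0.26 to 0.47), and *Oprm1*, with -0.32 (-0.37 to -0.27), also lay beyond those percentiles. *Pdyn* was at 0.26 (0.18 to 0.35), *Gal* at 0.18 (0.09 to 0.27) and *Nts* at 0.14 (0.05 to 0.23). Of the 10 members, 5 (*Penk*, *Cck*, *Tac1*, *Oprm1* and *Pdyn*) had a gap past 1.2-fold, against 10.6% of all genes. The gap of *Vip* was 0.04 (-0.02 to 0.11), of *Oprk1* 0.04 (-0.04 to 0.13) and of *Adcyap1* 0.05 (-0.05 to 0.16), which rounding alone could give. Whether the effect of genotype depends on diet was not tested for any of them.

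The receptors through which the members' peptides act were counted in the same way. Of 17 receptor genes on the list, which holds *Oprm1* and *Oprk1* too, 13 passed the filter on each diet. On chow, 7 had the higher mean in *Gpr75-/-* mice, 3 the lower and 3 an equal one, the median was 0.06, and 2 were past 1.2-fold, the member *Oprm1* counted above and *Cckar*. Both belong to the class of 50 to 200 normalized counts, in which 18.8% of all genes were past it on chow. On the HFD, 5 were higher, 5 lower and 3 equal, with a median of 0, and *Oprd1*, of the same class (14.5% on the HFD), was the 1 past 1.2-fold. *Cckar*, which encodes the CCK1 receptor that relays satiety, was higher on both diets. Its group means were 2.94 in WT and 3.23 in *Gpr75-/-* mice on chow and 3.08 and 3.32 on the HFD, with differences of 0.28 and 0.23. *Cckbr*, the gene of the other cholecystokinin receptor, was at 0.06 and 0.12. Ligand and receptor genes of this pathway thus had opposite signs on the HFD, where *Cck* was at -0.26.

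For galanin, *Galr1* had a difference of 0.12 on chow and -0.03 on the HFD, and *Galr2* and *Galr3* were not analysed here. The neurotensin receptor genes *Ntsr1* and *Ntsr2* were at -0.16 and -0.06 on chow and 0.06 and 0 on the HFD, and *Sort1*, whose product sortilin also binds neurotensin, at 0 and -0.12. The tachykinin receptor genes *Tacr1* and *Tacr3* had equal group means in both genotypes on each diet, 4.58 and 4.43 on chow and 4.74 and 4.66 on the HFD. *Tacr2* was not analysed here. The *Tac1* difference on the HFD (0.26) thus had no counterpart in either tachykinin receptor gene measured. The PACAP receptor gene *Adcyap1r1*, the most abundant of the receptors, was at 0.06 on chow and 0.13 on the HFD. *Vipr2*, through which VIP acts in the suprachiasmatic nucleus, was at 0.11 and -0.06, and *Vipr1* was below the filter on chow and not analysed here on the HFD. *Oprl1*, the gene of the nociceptin receptor and no target of the members' peptides, was at 6.31 in WT and 6.52 in *Gpr75-/-* mice on chow, a difference of 0.21, and at 0.05 on the HFD.

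The members' HFD values were set against other peptide precursor genes of the hypothalamus. Of 23 on the list, 15 passed the filter on the HFD and all 15 had the higher mean in *Gpr75-/-* mice, 13 of them beyond rounding. The median difference was 0.23, the range 0.03 to 0.90, and 6 were past 1.2-fold. Of all genes kept on the HFD, 46.3% were higher, 30% were higher beyond rounding and 2.74% were higher past 1.2-fold. On chow, 8 of 16 were higher and 7 lower, with a median of 0.03, and 43.3% of all genes were higher. Of the 8, *Agrp* passed the filter only through the *Gpr75-/-* group. The precursor genes among the members had medians of -0.02 on chow and 0.12 on the HFD, and of the precursor genes kept from either list *Cck* was the only one with a lower *Gpr75-/-* mean on the HFD. *Pomc*, whose product gives both β-endorphin and the satiety peptide α-MSH, was at 4.10 in WT and 3.82 in *Gpr75-/-* mice on chow and at 4.35 and 4.82 on the HFD. Its differences were -0.28 and 0.46, the same order of signs as *Penk* and *Pdyn*. *Pnoc*, the nociceptin precursor gene, was at -0.04 and 0.11, and *Tac2*, the neurokinin B gene, at 0.16 and 0.08.

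The remaining precursors past 1.2-fold on the HFD act in feeding or social behavior. *Npvf*, which encodes RFamide-related peptides, was at 1.53 in WT and 2.43 in *Gpr75-/-* mice, with a mean of 82.5 normalized counts. *Npy*, the gene of the appetite peptide neuropeptide Y, was at 4.03 and 4.50, *Pmch* at 7.82 and 8.19, and *Hcrt*, the orexin gene, at 6.73 and 7.06. The oxytocin gene *Oxt* had a difference of 0.28. Of these, *Npy*, *Pmch*, *Hcrt* and *Oxt* were named after their values were seen. On chow, these 4 had differences between -0.08 (*Npy*) and 0.11 (*Hcrt*).

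Markers of neighboring brain regions moved with some of the members. *Penk*, *Pdyn* and *Tac1* are also strongly expressed in the striatum, a nearby region of the forebrain. On chow, all 5 striatal markers were lower in *Gpr75-/-* mice and past 1.2-fold, with a median difference of -0.65. Of all genes kept on chow, 3.41% were lower past 1.2-fold. In either direction, 18.8% were past it at 50 to 200 normalized counts, the class of *Adora2a*. At 200 to 1000, the class of the other striatal markers, 3.63% were. The summed level of the 5 was 105 CPM in WT and 76.7 CPM in *Gpr75-/-* mice, with *Rgs9* the most abundant. Of these, *Adora2a* passed the filter only through the WT group, with 3.15 CPM in WT and 1.74 CPM in *Gpr75-/-* mice. The other differences were -0.68 (*Ppp1r1b*), -0.65 (*Drd1*) and -0.30 (*Drd2* and *Rgs9*). *Drd1*, the D1 dopamine receptor gene, was at 3.99 and 3.35, and *Ppp1r1b*, the gene of a dopamine-regulated phosphoprotein, at 4.78 and 4.10. *Penk*, at -0.50, was within the range of the markers other than *Adora2a* (-0.85), which ran from -0.68 to -0.30. By contrast, *Pdyn* (-0.13) and *Tac1* (-0.10) were nearer to 0. On the HFD, the 4 striatal markers that passed the filter had a median of 0.01 and summed to 74.1 CPM in WT and 73.1 CPM in *Gpr75-/-* mice, with *Drd1* at -0.31. *Adora2a*, left out there with a mean of 30.2 normalized counts, was at -0.59. The part of striatal tissue in the *Penk* difference on chow was not tested.

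*Cck* on the HFD had the same sign as markers of cortex and thalamus. All 3 cortical and hippocampal markers that passed the filter had lower *Gpr75-/-* means on the HFD, with a median of -0.38 and a sum of 44.6 CPM in WT and 33.7 CPM in *Gpr75-/-* mice. *Slc17a7*, the most abundant, encodes a vesicular glutamate transporter and was at 4.82 and 4.35. Among 4 thalamic markers, 3 were lower and 1 equal, with a median of -0.21 and a sum of 966 and 869 CPM. The equal one was *Calb2*, the most abundant of them, at 8.45 in both genotypes. *Prkcd* was at -0.34 and *Tcf7l2* at -0.25. On chow, where *Cck* was at 0.13, the cortical markers had a median of 0.13 (49.1 and 53.6 CPM) and the thalamic ones a median of 0.03 (1070 and 1100 CPM). Their part in the *Cck* difference was not tested.

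Markers of hypothalamic neurons were set beside the precursor genes on the HFD. Of 7 that passed the filter, 6 were higher in *Gpr75-/-* mice and 1 was equal, 5 were past 1.2-fold, and the median was 0.33. Of all genes kept on the HFD, 2.74% were higher past 1.2-fold. *Sim1* and *Otp* belong to the class of 50 to 200 normalized counts, in which 14.5% were past it in either direction. The sum of the 7 markers was 602 CPM in WT and 729 CPM in *Gpr75-/-* mice, with *Pmch* the most abundant. Of these 7, *Hcrt*, *Pmch*, *Avp* and *Oxt* are peptide precursor genes already counted among the other precursors. These 4 made up 560 CPM of the sum in WT and 683 CPM in *Gpr75-/-* mice, so the sum is no separate measure. The 3 that encode transcription factors were divided, with *Sim1* at 0.38, *Otp* at 0.42 and *Nkx2-1*, the most abundant of them, at 0.00 (-0.04 to 0.04). Their sum was 41.9 CPM in WT and 46.2 CPM in *Gpr75-/-* mice. On chow, *Nkx2-1* was at -0.20 (-0.24 to -0.16) and both others at 0.06. Over the whole list on chow, 7 of 8 were higher with a median of 0.06, and the sum was 608 and 636 CPM. Of the 7, *Agrp* (0.32) passed the filter only through the *Gpr75-/-* group. General neuronal markers were near 0, with a median of 0 on chow and -0.03 for HFD-fed mice. The *Vip* difference on the HFD (0.35) was near the median of the hypothalamic markers, while that on chow (0.30) was above it. What share of each member's difference goes with the hypothalamic share of the tissue was not tested.

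**Figure D3:**
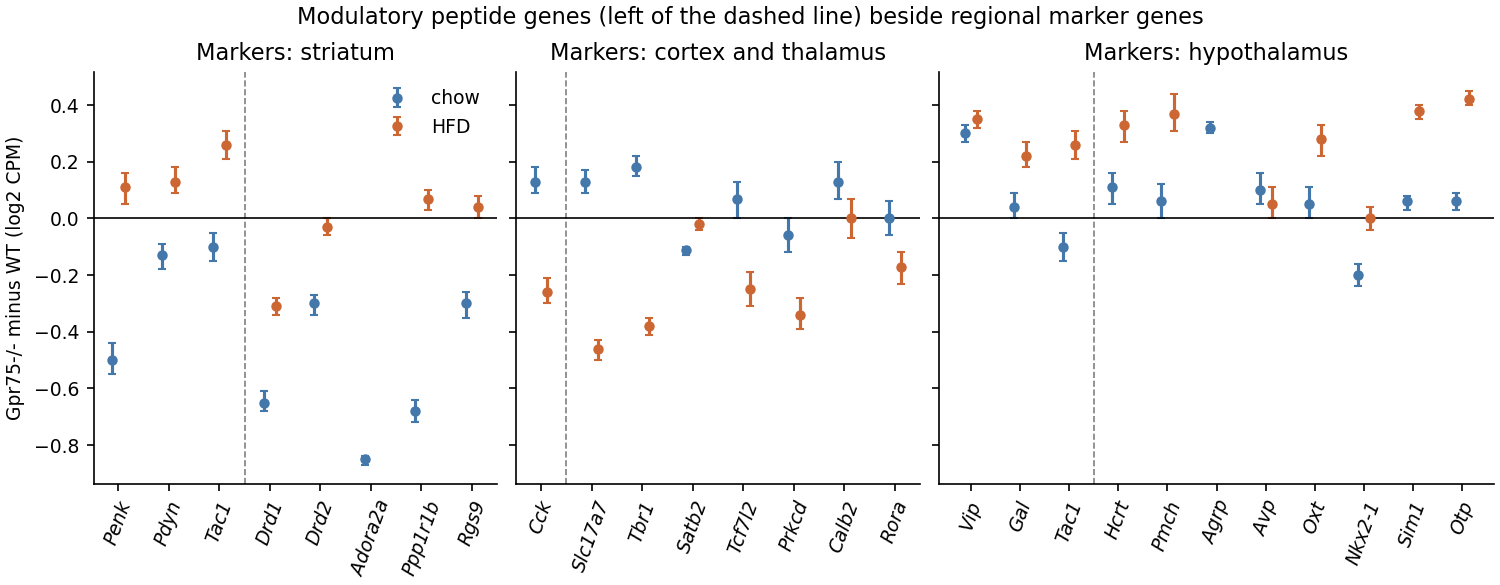
Difference of group means, *Gpr75-/-* minus WT, in log2 CPM on chow (blue) and on the HFD (orange) for members, left of each dashed line, and for markers of striatum, of cortex and thalamus, and of hypothalamic neurons, with bars for the bounds that rounding allows. Values below the filter are not drawn. The 5 striatal markers lie between -0.85 and -0.30 on chow, where *Penk* is at -0.50. The lowest is *Adora2a*, which passed the filter only through the WT group, and the others lie between -0.68 and -0.30.

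Because 6 of the 8 precursor genes were higher in *Gpr75-/-* mice on the HFD by more than rounding could give, as were 30% of all genes, the members' promoters were searched for letters that they might have in common. The motif TGACG, or CGTCA on the opposite strand, is the core of the cAMP response element, which CREB proteins bind and which is known from the promoters of several neuropeptide genes. Both spellings overlap in the full element and were then counted once. The motif was chosen after the values were seen. Of the 10 members, all but *Penk* and *Oprk1*, or 8, were matched by symbol in a table of RefSeq promoters (GRCm38.p6). The motif was found in the 250 bases upstream of the start in 5 of these 8 (62.5%), against 5347 of 27025 genes (19.8%). The 30 bases around the match nearest to the start are printed here 5′ to 3′ along each gene's own strand, with the motif in capitals, to show how the flanking letters differ. They lie at chr6:7555006-7555035 on the + strand (*Tac1*), chr9:121495724-121495753 on the - strand (*Cck*), chr10:5639127-5639156 on the + strand (*Vip*), chr10:102490567-102490596 on the - strand (*Nts*) and chr17:93198914-93198943 on the + strand (*Adcyap1*).
Tac1: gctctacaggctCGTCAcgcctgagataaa
Cck: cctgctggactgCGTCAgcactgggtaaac
Vip: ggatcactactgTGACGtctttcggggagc
Nts: attagggaagatCGTCActttccatcaagg
Adcyap1: ggactaggatgcTGACGtcttttactgata
The motif lies 43 to 39 bases before the start in *Tac1*, which has 2 matches, 47 to 43 in *Cck*, 79 to 75 in *Vip*, 91 to 87 in *Adcyap1* and 166 to 162 in *Nts*. No match was found upstream in *Pdyn*, *Oprm1* and *Gal*. The genes with a match include the precursor gene with a lower *Gpr75-/-* mean on the HFD (*Cck*) and one with no detectable difference (*Adcyap1*). Of the 6 precursor genes higher beyond rounding on the HFD, *Tac1*, *Vip* and *Nts* had a match and *Pdyn* and *Gal* had none. The promoter of *Penk*, also of these 6, was not searched. A match is a run of letters and not a measured binding site.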

How the data were processed

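Hypothalamus RNA of 12 male mice, 3 in each of 4 groups, was extracted with TRIzol and PureLink columns, made into libraries with a SMART-Seq mRNA kit and sequenced on a NovaSeq instrument by the authors. The submitters' processing notes name STAR, featureCounts, StringTie, DESeq2 and GRCm39, with no role or version. Reads were processed on the Astrocyte platform, and the authors compared genotypes on each diet with DESeq2 on raw counts. The deposited signal per gene is the mean over the 6 mice of a diet of counts divided by size factors. The deposited group means are on a log2 scale, read here as log2(log2 CPM + 1), because the average of both groups lay within 0.01 of that transform of the mean count for 96% of genes on chow and 96.8% on the HFD with a mean of at least 100 (40.4% and 41.8% at 50 to 100). The order of averaging and logs was not given in the sources used here. The authors' comparison columns, which hold fold changes, their errors, test statistics and p-values, were not used.

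From these values, log2 CPM was calculated back, the groups were subtracted, and rounding bounds were taken from ±0.005 in the deposited means. Genes with a mean of at least 50 were kept, 14240 of 16855 on chow and 14326 of 16744 on the HFD. With no test possible on means, a 1.2-fold difference served as the limit. A count test planned for values of single mice was replaced by this difference. The genes named by rule are the members, the receptors of their peptides, and the highest and lowest kept gene of each other peptide or enzyme list. Other genes, single markers among them, were named after their values were seen. Members and lists were chosen with earlier results of these data known. A gene on a marker list is not reported here and was left out of that list's counts, median and sums. Exon lengths came from GENCODE M21, used for lengths alone, and promoters from RefSeq. The back-calculation was tested on simulated group means without noise. These were made with the transform that it inverts, so the test could check neither that scale nor the spread between mice. Python 3.11.15, numpy 2.4.6, pandas 2.3.3 and matplotlib 3.10.9 were used. Depth per mouse was not analysed here, and the mean depth after scaling was 18280462 and 19420111 normalized counts. Alternatives were other filters, folds, a pseudocount, centring, gene types, rounding rules and transcript lengths.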

Additional observations from a re-analysis of the deposited data

How the results depend on the processing

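No paired analysis was possible because the tables used here hold 1 mean per group and values of single mice were not analysed here, and leaving out replicates was not run for the same reason. Of 40 member differences under centring or a pseudocount of 1, 39 moved by no more than their rounding bounds allow, 1 moved further (*Oprm1* on chow, to 0.26) and 0 reversed. Centring could move none of them, since the median difference of all genes was 0 on each diet, so it was no test of stability. The number of genes past 1.2-fold on chow, 993, was 1945 with no filter on the mean and 542 with a mean of at least 100. It was 661 for protein-coding genes alone, 691 with a pseudocount of 1, and 3572 and 73 at 1.1-fold and 1.5-fold. On the HFD, 721 became 1464 with no filter, 354 with a mean of at least 100, 457 with a pseudocount of 1, and 2982 and 39 at 1.1-fold and 1.5-fold. Of the members, 3 were past the limit on chow, 2 with a pseudocount of 1 and 0 at 1.5-fold. On the HFD 1 was, with 4 at 1.1-fold, 0 at 1.5-fold and 4 where any part of the rounding bounds counts. The gap between diets was past 1.2-fold for 5 members, against 10.6% of all genes, and for 3 members where the whole of the bounds must pass. Both rounding rules were chosen after seeing the data. With the longest transcript in place of all exons, 6 of 10 members kept their place in the order of levels on chow and 4 on the HFD, and with the shortest 3 and 3. Filters, gene types and folds change how many genes can count, and a pseudocount shrinks the differences of low genes. Depth limits *Oprm1* most, with 111 and 103 mean normalized counts.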

Other observations

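Genes for processing the members' precursors, which encode enzymes and the proteins that assist or inhibit them, had small differences between the genotypes. All 6 passed the filter, with a median difference of 0 on chow (-0.05 for *Pam* to 0.15 for *Pcsk1*) and 0.06 on the HFD (-0.12 for *Pcsk2* to 0.16 for *Pam*), and 0 were past 1.2-fold. *Pcsk1* and *Pcsk2* encode the prohormone convertases and *Pam* the enzyme that amidates peptide ends, which substance P, VIP, PACAP and cholecystokinin need for activity. Of the genes for peptidases that degrade enkephalins, 3 of 4 passed the filter. *Ace* was at 4.28 in WT and 4.62 in *Gpr75-/-* mice on chow, a difference of 0.34, and at 0.11 on the HFD. *Mme*, the neprilysin gene, was at 0.10 on chow and -0.10 on the HFD, and *Lnpep* at -0.05 and 0. Of the 19 other hypothalamic peptide genes listed, 13 passed the filter on chow, where they ran from -0.15 (*Crh*) to 0.32 (*Agrp*). Of these, *Agrp* passed the filter only through the *Gpr75-/-* group, with 2.69 CPM in WT and 3.37 CPM in *Gpr75-/-* mice. The next highest was *Trh* at 0.20. On the HFD 12 passed it, and *Crh* had the lowest difference of these, 0.03.

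Markers of other cell types were set beside the members, and their part in the members' differences was not tested. All 6 choroid plexus markers kept on chow were higher in *Gpr75-/-* mice (median 1.11, sum of the group means 41.8 CPM in WT and 71.4 CPM in *Gpr75-/-* mice, led by *Clic6* on that scale and by *Ttr* in mean normalized counts), and on the HFD the 4 kept had a median of 0.05 (34.4 and 35.7 CPM). On chow, *F5* (1.64 and 3.32 CPM) and *Sostdc1* (2.23 and 5.50 CPM) passed the filter only through the *Gpr75-/-* group. The others were at 1.26 (*Kl*), 1.21 (*Ttr*), 0.41 (*Otx2*) and 0.39 (*Clic6*). *Ttr* was left out on the HFD, with a mean of 48.5 normalized counts and a difference of -1.41. *Ace*, named above, is also expressed in choroid plexus, and the part of that tissue in its difference was not tested. All 6 oligodendrocyte markers were lower on both diets, with medians of -0.19 and -0.27. Red blood cell markers were higher on chow (5 of 5, median 0.63) and lower on the HFD (5 of 5, median -0.20). Medians for astrocytes were 0.06 and 0, for microglia -0.02 and -0.07, and for endothelial cells -0.09 and -0.10. The cerebellar gene *Cbln3* was listed at 0 in WT and at 1.33 in *Gpr75-/-* mice on the HFD, and cerebellar markers were not analysed here on chow. With a mean of 57.3 normalized counts, *Cbln3* passed the filter only through the *Gpr75-/-* group.

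The values are means of 3 mice per group without their spread, and whether a difference rests on 1 mouse was not tested. A mean of logs and the log of a mean part where mice differ widely. *Ttr* had a mean of 2910 normalized counts on chow while its group means were only 2.48 and 3.69. Rounding leaves bounds of about ±0.05 for the abundant members. The tissue is a dissected block whose borders were not analysed here, and regional markers moved with *Penk* and *Cck*. mRNA levels do not give peptide content or release, and 1 time point on the HFD was sampled.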
